A study of Mus musculus with 2 samples.

Results

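The Elavl and Celf genes encode 2 families of RNA-binding proteins, and their 10 mouse members, Elavl1 to Elavl4 and Celf1 to Celf6, were described here in newborn forebrain. Members were chosen by gene symbol, and all 10 were found among the 43346 genes of the deposited tables. On GRCm38 the Elavl genes are annotated on the minus strand, Elavl1 at chr8:4285382-4325413, Elavl2 at chr4:91250763-91400785, Elavl3 at chr9:22015005-22052023 and Elavl4 at chr4:110203722-110351909. The Celf genes are annotated as Celf1 at chr2:90940382-91019497, Celf2 at chr2:6539694-7509563, Celf3 at chr3:94478295-94492198, Celf4 at chr18:25477632-25754157, Celf5 at chr10:81459227-81482709 and Celf6 at chr9:59577917-59607292, with Celf1, Celf3 and Celf6 on the plus strand and the others on the minus strand. The study sequenced total RNA from single forebrains of 2 newborn B6NCrl mice (postnatal day 0), named pup 1 (replicate 1) and pup 3 (replicate 2), with 1 library each. The pups formed 1 group with no treatment, mutation or other condition, so there was no condition to contrast. According to the labels, 10 ng of RNA longer than 200 nt was used, the RNA was extracted with the mirVana kit, spike-in RNAs were added and the sex was not recorded. Both samples carry the same donor identifier although they are named as different pups, so the spread between them may be partly technical.

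Elavl proteins, also called Hu proteins, bind AU-rich elements in the 3′ untranslated regions (UTRs) of mRNAs and mostly stabilise them or favour their translation. Elavl1 (HuR) is made in nearly all cells, whereas Elavl2 (HuB), Elavl3 (HuC) and Elavl4 (HuD) are neuronal proteins that appear as neurons leave the cell cycle. Celf proteins bind GU-rich elements: Celf1 and Celf2 are widely made regulators of alternative splicing and mRNA decay, and Celf3 to Celf6 are found mainly in the brain.

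The libraries held 40066386 expected counts in pup 1 and 40431595 in pup 3. The 10 members held 81275 of these in pup 1 and 62268 in pup 3, or 0.203% and 0.154%. Forebrain markers were present at 1 TPM (transcripts scaled by length and library) or more in both pups for 7 of 7 genes, with a median of 35.3 TPM. Of 7 midbrain and hindbrain markers 1 reached 1 TPM in both pups, Gbx2 at 18.5 and 7.65 TPM, and the others had at most 0.78 TPM on the mean. Neuron markers were present for 8 of 8 genes with a median of 199 TPM, and radial glia and progenitor markers for 8 of 8 genes with a median of 58.5 TPM. In bulk RNA, fewer cells of a type and less RNA per cell cannot be told apart.

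The neuronal Elavl genes share a short exon that Elavl1 lacks, and it is shown first because it sets their annotated coding exons apart from those of Elavl1. In the leading transcript with a complete coding sequence, exons of 104, 154 and 226 nt were present in 4 of 4 Elavl genes, and an exon of 39 nt was present in 3 of 4, Elavl2, Elavl3 and Elavl4. The 39-nt exon lies just before the last coding exon, in the part that encodes the hinge between the second and the third RNA-binding domains. The sequences below are from GENCODE M21 transcripts on GRCm38, 5′ to 3′ in the sense of the gene, with capitals at positions where the 3 exons are not all alike. The exon of Elavl2 lies at chr4:91254141-91254179, that of Elavl3 at chr9:22024674-22024712 and that of Elavl4 at chr4:110209740-110209778, all on the minus strand.
Elavl2 linker exon: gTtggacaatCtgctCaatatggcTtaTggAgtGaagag
Elavl3 linker exon: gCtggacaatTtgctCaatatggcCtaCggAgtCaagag
Elavl4 linker exon: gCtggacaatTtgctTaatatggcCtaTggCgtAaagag
The 3 exons were identical at 32 of 39 positions. Counted from 1 at the exon's 5′ end, Elavl2 and Elavl4 differed at 6 positions (T2C, C11T, C16T, T25C, A31C and G34A, Elavl2 base first). Elavl2 and Elavl3 differed at 5 positions and Elavl3 and Elavl4 at 4. Of the 7 variable positions 5 fell on the third base of a codon, 2 on the first and 0 on the second. The first-base changes were TTG against CTG, and under the standard genetic code none of the 7 changed the encoded residue.

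This exon was included in most, not all, of the mRNA of Elavl2 and Elavl4. Among transcripts with a complete coding sequence, the Elavl2 exon was in 90.7% of the TPM in pup 1 and 87.4% in pup 3 (89.1% ± 2.34, SD, n = 2). The Elavl4 exon was in 86.4% in pup 1 and 88.7% in pup 3 (87.5% ± 1.57). Among complete coding transcripts a minor form without the exon remained in both genes, and the ranges of Elavl2 and Elavl4 over the pups overlapped. Over all transcripts that span it, the Elavl4 exon was in 94.2% in pup 1 and 95.1% in pup 3. The Elavl2 exon was then in 90.8% in pup 1 and 87.5% in pup 3, and the ranges did not overlap. In Elavl4 the form without the exon was 1 transcript, Elavl4-207. Elavl3 has only 1 transcript in the deposited tables, Elavl3-201, which contains the exon, so its inclusion could not be measured. These percentages are sums of transcript TPM that the authors' quantification assigned, not counts of reads across splice junctions.

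All 10 members were detected at 1 TPM or more in both pups, a level that 33.2% of all genes and 60.7% of protein-coding genes reached. Elavl2 had 73.6 TPM in pup 1 and 57.5 TPM in pup 3 (65.5 ± 11.4, SD, n = 2). Elavl3 had 50.9 TPM in pup 1 and 31.3 TPM in pup 3 (41.1 ± 13.9). Elavl4 stood highest of the family with 169 TPM in pup 1 and 131 TPM in pup 3 (149.8 ± 27.1), and its lower pup was above both pups of every other Elavl gene. Elavl1, the widely made member, had 36.4 TPM in pup 1 and 26.9 TPM in pup 3 (31.6 ± 6.74). Among 13030 protein-coding genes at 1 TPM or more, whose median was 17.0 TPM, the means of these genes lay at percentiles 80.8 for Elavl2, 71.5 for Elavl3, 91.6 for Elavl4 and 65.5 for Elavl1.

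The 3 neuronal members together made up 88.96% of the Elavl family's TPM in pup 1 and 89.1% in pup 3. Within each pup, Elavl2 TPM exceeded Elavl1 TPM 2.02-fold in pup 1 and 2.13-fold in pup 3, and this difference was larger than 3 SD of the log2 ratio between the pups, the spread used for gene ratios throughout. Elavl4 exceeded Elavl1 4.63-fold in pup 1 and 4.85-fold in pup 3 in TPM, past the same spread. Elavl3 exceeded Elavl1 1.40-fold in pup 1 and 1.16-fold in pup 3, which did not pass it. The smallest p that 2 pups allow in an exact two-sided sign-flip test is 0.5, so no p-value is attached to these ratios.

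**Figure D1:**
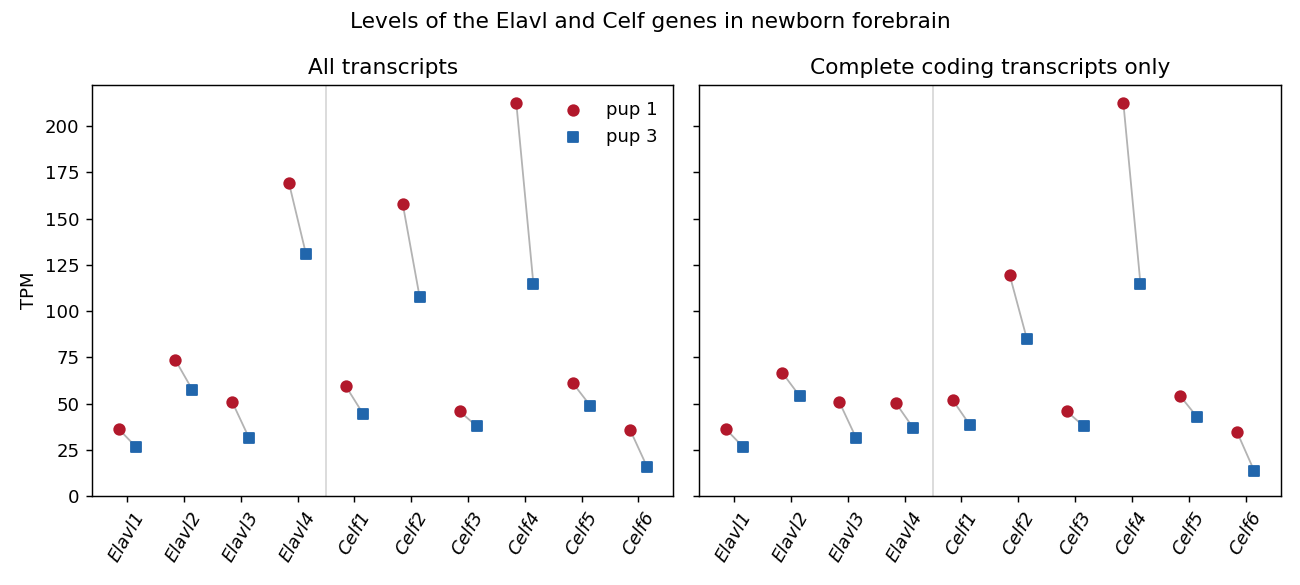
Level of each Elavl and Celf gene in TPM (vertical axis, linear from 0) in pup 1 (circles) and pup 3 (squares), with a line joining the pups, from all transcripts (left) and from transcripts with a complete coding sequence (right). Celf4 stays at 212 and 115 TPM in both panels, whereas Elavl4 has 169 and 131 TPM on the left and 50.1 and 37.0 TPM on the right.

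The high TPM of Elavl4 rested on short transcripts. Its leading transcript in both pups was Elavl4-211, an 869-nt transcript annotated as processed (without a coding sequence), which held 39.5% of the gene's TPM in pup 1 and 37.3% in pup 3. Elavl4-210, a processed transcript of 464 nt, held 16.8% in pup 1 and 23.3% in pup 3. Together these 2 transcripts held 58.4% ± 3.03 of the gene's TPM (SD, n = 2) and 23.5% ± 0.96 of its expected counts, since TPM divides counts by transcript length. Exons of complete coding Elavl4 transcripts covered 82.9% of the bases of Elavl4-211 and 74.4% of those of Elavl4-210, which left 149 and 119 nt of their own. How the reads of the common bases were divided between short and long transcripts was not tested.

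Transcripts with a complete coding sequence gave another order within the family. On that scale Elavl4 had 50.1 TPM in pup 1 and 37.0 TPM in pup 3 (43.5 ± 9.33, SD, n = 2), which was 29.0% ± 0.98 of its TPM but 72.4% ± 0.38 of its expected counts. Elavl2 had 66.6 TPM in pup 1 and 54.3 TPM in pup 3 from such transcripts. Elavl2 over Elavl4 was thus 0.436 in pup 1 and 0.44 in pup 3 from all transcripts, and 1.33 in pup 1 and 1.47 in pup 3 from complete coding transcripts, past the spread in both cases and in opposite directions. Elavl3 over Elavl4 was 0.302 and 0.24 from all transcripts in pups 1 and 3, and 1.02 and 0.846 from complete coding transcripts, where the pups fell on opposite sides of 1. Among all 10 members Elavl4 ranked 2 in pup 1 and 1 in pup 3 by TPM, and 7 in each pup by complete coding TPM.

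The share of the neuronal members in the family changed less. It was 82.2% in pup 1 and 82.0% in pup 3 from complete coding transcripts, and 78.6% in pup 1 and 78.1% in pup 3 from expected counts. Elavl4 alone made up 52.1% ± 1.29 of the family's TPM and 24.7% ± 0.12 of its complete coding TPM. Elavl2 held 34.5% ± 2.62 of the complete coding TPM, the highest mean of the 4 members, and Elavl3 held 22.9% ± 2.85. Elavl1 held 17.9% ± 0.11.

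**Figure D2:**
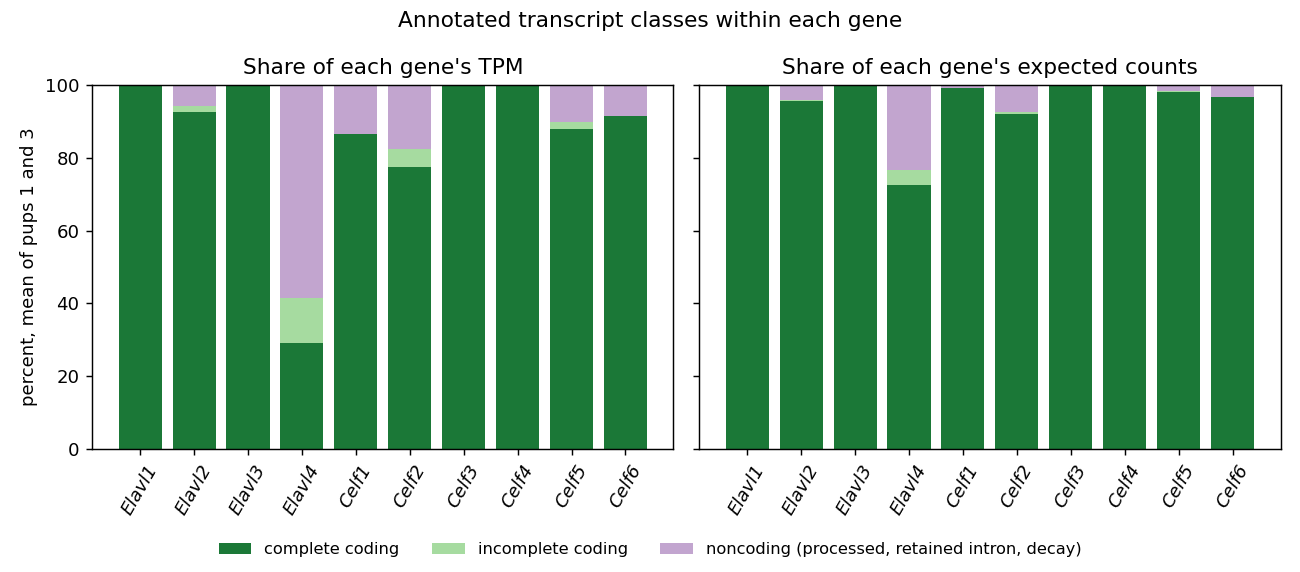
Share of each gene's TPM (left) and expected counts (right) held by transcripts with a complete coding sequence, with an incomplete one, and of the processed, retained-intron and decay classes, in percent as the mean of pups 1 and 3. Complete coding transcripts hold 29.0% of Elavl4 TPM and 72.4% of its counts, against 77.4% or more of the TPM of every other member.

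Celf1 and Celf2, the widely made members of the second family, differed from each other. Celf1 had 59.4 TPM in pup 1 and 44.7 TPM in pup 3 (52.1 ± 10.4, SD, n = 2), at percentile 76.6 of the protein-coding genes. Celf2 had 158 TPM in pup 1 and 107 TPM in pup 3 (132.7 ± 35.8), at percentile 90.5. Celf1 over Celf2 was 0.376 in pup 1 and 0.417 in pup 3, past the spread, and 0.434 and 0.452 from complete coding transcripts.

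Among the brain-enriched members Celf4, which binds the 3′ UTRs of many synaptic mRNAs and whose loss causes seizures in mice, stood above the other three. It had 212 TPM in pup 1 and 115 TPM in pup 3 (163.5 ± 68.9, SD, n = 2), at percentile 92.3. Celf5 had 60.9 TPM in pup 1 and 49.0 TPM in pup 3 (55.0 ± 8.43). Celf3 had 46.0 TPM in pup 1 and 37.9 TPM in pup 3 (42.0 ± 5.76). Celf6, the lowest of all 10 members in both pups, had 36.1 TPM in pup 1 and 16.0 TPM in pup 3 (26.0 ± 14.2). Celf4 exceeded Celf3 4.60-fold in pup 1 and 3.03-fold in pup 3, Celf5 3.48-fold and 2.34-fold, and Celf6 5.87-fold and 7.13-fold, all past the spread in TPM. Celf5 also exceeded Celf3 past the spread, 1.32-fold in pup 1 and 1.29-fold in pup 3. Neither Celf3 nor Celf5 was separated from Celf6 by it, since Celf3 over Celf6 was 1.28 in pup 1 and 2.36 in pup 3 and Celf5 over Celf6 was 1.69 and 3.05.

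Celf4 and Celf2 led the Celf family without being separated from each other. Celf4 made up 37.1% of the family's TPM in pup 1 and 31.0% in pup 3, and Celf2 made up 27.6% and 29.0%. Celf2 over Celf4 was 0.745 in pup 1 and 0.935 in pup 3, within the spread. Celf3 to Celf6 together held 62.0% of the family's TPM in pup 1 and 58.9% in pup 3, or 67.0% and 62.9% from complete coding transcripts. The Celf sum was 573 TPM in pup 1 and 369.8 TPM in pup 3, and the Elavl sum was 329.8 and 246 TPM.

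Ordered by mean TPM, the members ran Celf4, Elavl4, Celf2, Elavl2, Celf5, Celf1, Celf3, Elavl3, Elavl1 and Celf6. Of the 9 pairs of neighbours in that order 3 differed past the spread between the pups, namely Celf2 over Elavl2, Elavl2 over Celf5 and Celf1 over Celf3. By complete coding TPM the order ran Celf4, Celf2, Elavl2, Celf5, Celf1, Elavl4, Celf3, Elavl3, Elavl1 and Celf6, and 3 of 9 neighbours differed past the spread, Celf2 over Elavl2, Elavl2 over Celf5 and Celf1 over Elavl4. The last of these was a small difference, 1.03-fold in pup 1 and 1.04-fold in pup 3. Of the 15 gene pairs compared within families 10 were past the spread by TPM and 9 by complete coding TPM.

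The 10 members had 91 deposited transcripts, of which 20 held 10% or more of their gene's TPM on the mean. The leading transcript was the same in both pups for 10 of 10 members, though for Elavl1, Elavl3 and Celf3 the tables hold only 1 transcript. Elavl2 was divided among 3 long coding transcripts, Elavl2-208 with 27.8% of its TPM in pup 1 and 32.9% in pup 3, Elavl2-201 with 27.1% and 25.1%, and Elavl2-209 with 25.0% and 23.1%. In Elavl4 the highest share of a complete coding transcript was that of Elavl4-202 (4024 nt), with 15.8% and 15.2%. Celf1 was led by Celf1-203 with 32.0% in pup 1 and 31.1% in pup 3, followed by Celf1-202 with 18.1% and 21.5%, Celf1-201 with 13.4% and 14.6% and Celf1-204 with 11.0% and 14.3%. Celf2 was led by Celf2-206 with 40.3% and 41.2%, and Celf2-214 held 11.6% and 13.8%. Celf5 was led by Celf5-201 with 76.2% in pup 1 and 76.0% in pup 3. Celf6 was led by Celf6-201 with 51.9% and 53.6%, and Celf6-202 held 36.8% and 29.9%. Celf4 had 2 transcripts, Celf4-201 with 81.2% in pup 1 and 80.8% in pup 3 and Celf4-202 with 18.9% and 19.2%.

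Several members had transcripts annotated with different start codons, and so with different first residues of the annotated protein. The shares below are sums of assigned transcript TPM by annotated start. Which start codons are translated was not measured. In Elavl4, the start codon at chr4:110287241 carried 53.3% of the complete coding TPM in pup 1 and 54.9% in pup 3, that at chr4:110286493 carried 32.2% and 31.8%, and that at chr4:110351814 carried 13.6% and 11.3%. These first coding exons are only 9, 24 and 18 nt long, and they are printed with the start codon in capitals because they are the whole coding difference between the 3 forms at this end. They lie at chr4:110287233-110287241, chr4:110286470-110286493 and chr4:110351797-110351814 on the minus strand of GRCm38.
Elavl4 first coding exon from 110287241: ATGgttatg
Elavl4 first coding exon from 110286493: ATGgagtggaatggcttgaagatg
Elavl4 first coding exon from 110351814: ATGaggctccagaaccag
Elavl2 also had alternative annotated starts: the codon at chr4:91308839 carried 58.9% in pup 1 and 53.9% in pup 3, and the upstream one at chr4:91311644 carried 38.7% and 44.6%. In Celf1 the codon at chr2:90998590 carried 75.7% in pup 1 and 81.1% in pup 3, and the one at chr2:90987746 carried 24.3% and 18.9%. In Celf2 the codon at chr2:6884958 carried 68.7% in pup 1 and 69.3% in pup 3, and the one at chr2:6721594 carried 27.8% and 23.8%. In Celf6 the codon at chr9:59578378 carried 61.8% in pup 1 and 64.8% in pup 3, and the one at chr9:59590635 carried 38.2% and 35.2%. In each of these genes the same start codon led in both pups, and Elavl4 was the member with 3 starts above 10%. The Elavl4 start at chr4:110351814 was that of 1 transcript, Elavl4-207. That transcript also lacks the linker exon and the last-exon extension given below, so the shares of these features are not separate observations. Other members had such ties as well. Elavl2-207 lacks the linker exon and has the upstream start and the 3-nt segment given below. Celf1-204 alone lacks the 12-nt extension given below, and it has the CAG segment. In Celf2, all complete coding transcripts with the 18-nt or the 12-nt extension given below use the start at chr2:6721594.

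Optional coding segments were found mostly at the edges of exons. Elavl4 had a 42-nt extension of its last coding exon, which joins directly to the linker exon shown above, and it was in 85.5% of the complete coding TPM in pup 1 and 85.4% in pup 3. Over all Elavl4 transcripts, the short ones among them, it was in 36.7% and 36.8%. This segment is printed with the extension in capitals and the following 15 bases of the exon in lower case (chr4:110206645-110206701, minus strand).
Elavl4 last-exon extension: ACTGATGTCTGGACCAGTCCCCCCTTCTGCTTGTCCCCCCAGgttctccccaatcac
Elavl2 had a similar choice of 3 nt at the same border, included in 37.9% in pup 1 and 36.4% in pup 3 (chr4:91253553-91253570 with the following 15 bases, minus strand).
Elavl2 last-exon extension: TAGgttttctccaatgac
The bases that follow the optional ones in Elavl2 and Elavl4 belong to the last exon of either gene.

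A choice of 3 nt recurred in the Celf family. Celf1 included CAG at the start of an exon in 33.4% of its complete coding TPM in pup 1 and 41.7% in pup 3 (chr2:91009202-91009219 as printed, plus strand). Celf6 included CAG at the start of an exon in 61.8% in pup 1 and 65.5% in pup 3 (chr9:59604130-59604147, plus strand). The Celf6 transcript without CAG, Celf6-202, also held most of the TPM of the start at chr9:59590635, so these shares depend on each other. Celf5 included GTA at the end of an exon in 90.9% in pup 1 and 87.1% in pup 3 (chr10:81471306-81471323, minus strand). They are shown with the optional bases in capitals, because the Celf1 and Celf6 segments are the same 3 bases at the same edge of an exon. The Elavl2 and Elavl4 segments printed above also end in AG, so this ending is not particular to the Celf genes.
Celf1 optional bases: CAGggtcttcaccgagct
Celf6 optional bases: CAGcctatccctcggcct
Celf5 optional bases: gtgaaagccgtggagGTA
Celf4 likewise had an optional 3-nt segment, in 81.2% in pup 1 and 80.8% in pup 3, and an optional 30-nt segment, in 18.9% and 19.2%, each set by the same 2 transcripts. Longer segments were found in Celf2, whose 144-nt cassette exon at chr2:6549832-6549975 was in 71.8% in pup 1 and 73.0% in pup 3. That exon length occurred in 5 of 6 Celf genes, and exons of 80 and 83 nt in 6 of 6. Celf1 had a 71-nt cassette exon with the upstream start codon in 27.8% in pup 1 and 22.7% in pup 3, and a 12-nt exon extension in 87.4% in pup 1 and 83.4% in pup 3. Celf2 had extensions of 18 nt in 12.3% and 10.8% and of 12 nt in 11.9% and 8.51%. Over all Celf2 transcripts that span it, the 12-nt extension was in 17.9% and 16.0%. Celf6 had a 63-nt cassette exon in only 7.81% in pup 1 and 3.03% in pup 3.

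**Figure D3:**
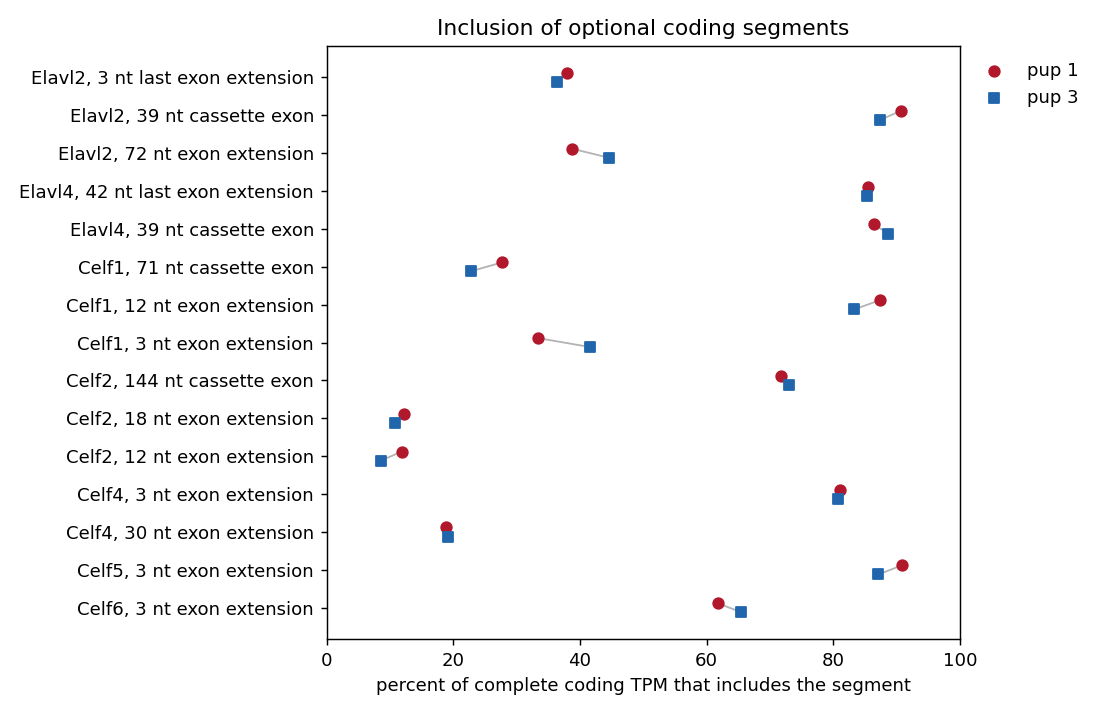
Inclusion of the optional coding segments whose mean lay between 10% and 90%, as a percent of the gene's complete coding TPM that spans the segment (horizontal axis), in pup 1 (circles) and pup 3 (squares). The pups lie close together for each segment, and the widest gap is that of the 3-nt extension of Celf1, at 33.4% in pup 1 and 41.7% in pup 3.

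All 10 members had higher TPM in pup 1 than in pup 3, as did 80.4% of the 14985 genes that averaged at least 1 TPM. Only Celf6 passed 2-fold, at 2.24-fold (log2 1.17), where 5.45% of these genes passed it in either direction, 4.82% with pup 1 higher and 0.627% with pup 3 higher. Celf4 followed at 1.85-fold, Elavl3 at 1.63-fold and Celf2 at 1.47-fold, and the other 6 members lay between 1.21-fold for Celf3 and 1.35-fold for Elavl1. The median of all genes was itself shifted, to log2 0.27 or 1.20-fold, and the median of the members was log2 0.42. Relative to the median of all genes Celf6 stood at log2 0.90, Celf4 at 0.62, Elavl3 at 0.43 and Celf3 at 0.01. With counts scaled by the trimmed mean of M-values (TMM), Celf6 was at log2 0.97 and no longer past 2-fold, and 9 of 10 members were higher in pup 1, the exception being Celf3 at log2 -0.01.

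Other lists moved between the pups as well. Neuron markers had a median log2 ratio of 0.45 and a summed level of 5830 TPM in pup 1 and 4830 TPM in pup 3, with 0 of 8 past 2-fold. Markers of dividing cells had a median of log2 -0.01, with sums of 206 and 214 TPM. Erythroid markers had a median of log2 -0.44, with sums of 2264 TPM in pup 1 and 3207 TPM in pup 3. Choroid plexus markers had a median of log2 0.59, with sums of 1395 TPM in pup 1 and 1084 TPM in pup 3. Astrocyte markers had a median of log2 0.38 (sums of 410 and 320 TPM), and those of the oligodendrocyte lineage 0.39 (181 and 153 TPM). The median was log2 0.34 for radial glia and progenitor markers (sums of 2825 and 2878 TPM), 0.17 for forebrain markers, 0.14 for microglia markers (80.5 and 72.9 TPM) and 0.05 for endothelium markers (182 and 180.0 TPM). Emx2, a forebrain marker at 9.76 TPM in pup 1 and 3.94 TPM in pup 3, and Cx3cr1, a microglia marker at 9.16 and 4.25 TPM, passed 2-fold, as did 5.45% of all genes tested. No marker in these lists was at 0 in either pup, and their part in the members' ratios was not tested.

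**Figure D4:**
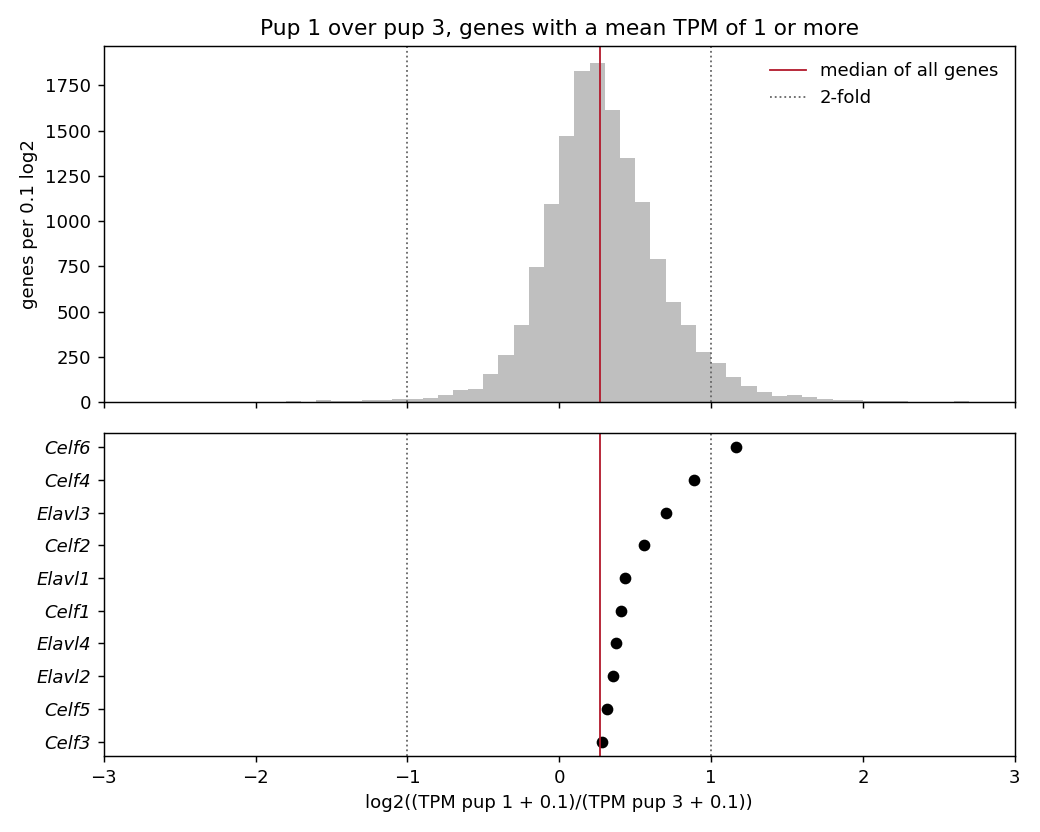
Distribution of the log2 ratio of TPM in pup 1 over pup 3 for the 14985 genes that averaged at least 1 TPM (top, genes per bin), and the ratio of each Elavl and Celf gene (bottom). The red line is the median of all genes at log2 0.27 and the dotted lines are 2-fold; all 10 members lie to the right of 0 and Celf6 alone lies beyond 2-fold.

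The 3′ UTRs of the members differed widely in short elements rich in T. Among these were AU-rich and GU-rich elements, the kinds of sequence that Elavl and Celf proteins bind. The elements counted on the transcript strand were ATTTA, the core of AU-rich elements, and TTTGTTT and TGTTTGT, a pair of GU-rich elements that can overlap each other. The UTRs were those of the leading complete coding transcript of each gene in GENCODE M21, and 11216 detected protein-coding genes with a 3′ UTR of 200 nt or more served as the background, in which 72.3% held ATTTA, 42.0% held TTTGTTT and 28.7% held TGTTTGT. Elavl1 had a UTR of 4218 nt with 17 ATTTA, 15 TTTGTTT and 3 TGTTTGT. Its TTTGTTT density of 3.56 per kb lay at percentile 97.0 of the background and its ATTTA density of 4.03 per kb at percentile 89.5. Elavl2 had 15 ATTTA in 2477 nt (6.06 per kb, percentile 97.0), Elavl3 had 8 in 3498 nt (percentile 68.3) and Elavl4 had 9 in 2595 nt (percentile 84.7). Celf1 had 12 TTTGTTT in 6044 nt (1.99 per kb, percentile 91.0) and Celf2 had 5 in 3851 nt (percentile 83.7). In ATTTA density Celf1, with 10 copies, lay at percentile 55.4 and Celf2, with 6, at percentile 53.1. Long UTRs hold such elements often: among UTRs of 0.8 to 1.25 times the length of that of Elavl1, 98.1% held ATTTA and 82.1% held TTTGTTT, with medians of 7 and 2 copies.

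Celf6 had 0 of each in 1341 nt, whereas 81.8% of UTRs of similar length held ATTTA, 44.5% held TTTGTTT and 28.2% held TGTTTGT. Celf5 had 1 ATTTA in 3099 nt, against a median of 5 at similar length, and 2 TGTTTGT, against a median of 1. It had 0 TTTGTTT, against a median of 2, and 74.3% of UTRs of similar length held that element. Celf3 had 1 ATTTA in 1070 nt, against a median of 2, and 1 TTTGTTT, against a median of 0. Celf4 had 2 ATTTA in 1288 nt, the same as the median at similar length. These comparisons matched length only, while the elements are rich in T. The UTRs held 22.9% T in Celf6, 23.4% in Celf4 and 24.4% in Celf5, against 33.2% in Elavl1, 36.3% in Elavl2 and a background median of 29.1%. The UTR of Elavl3 held 21.6% T, with its ATTTA density at percentile 68.3. The part of base content in these counts was not tested. A match is a stretch of letters and not a measured binding site, and the deposited lengths of Elavl1-201, Elavl3-201 and Celf4-201 differ from those in GENCODE M21. The 30-nt stretches with the most elements in Elavl1 and Elavl4 are shown with the elements in capitals (GRCm38 chr8:4285754-4285783 and chr4:110204758-110204787, both minus strand). They are shown because the first interleaves ATTTA with TTTGTTT and TGTTTGT, while the second holds TTTGTTT and TGTTTGT but no ATTTA.
Elavl1 3′ UTR: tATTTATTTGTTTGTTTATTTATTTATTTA
Elavl4 3′ UTR: gtTTTGTTTGTatatgtcttaagatgtttt
The Elavl1 stretch held 4 ATTTA, 2 TTTGTTT and 1 TGTTTGT in overlapping order.

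Most of the genes that act with the members, or whose mRNAs they are reported to bind, reached 1 TPM in both pups. So did 60.7% of all protein-coding genes, and those that did had a median of 17.0 TPM. These values are the background for each list below. Of the Elavl protein partners and modifiers 12 of 12 reached 1 TPM in each pup, with a median of 25.2 TPM and 0 past 2-fold between the pups, as against 5.45% of all genes tested. The highest were Set, Anp32a and Anp32b, which encode Elavl1-binding proteins, and Set had 333 TPM in pup 1 and 289.6 TPM in pup 3. The lowest was Chek2, a kinase that phosphorylates Elavl1, with 3.03 and 2.35 TPM. The other AU-rich and GU-rich element binding and decay factors were present for 13 of 13 genes, with a median of 28.2 TPM. They were led by Tia1 at 155 and 116 TPM in pups 1 and 3, Cnot7 (a deadenylase) at 132 and 109 TPM and Hnrnpd (AUF1) at 105 and 78.5 TPM. Zfp36, which encodes tristetraprolin, was the lowest at 4.61 and 2.77 TPM. Of these 13 genes 2 passed 2-fold, where 5.45% of all genes tested did. They were Cnot6l at 13.9 TPM in pup 1 and 6.79 TPM in pup 3, and Ago2 at 7.96 and 3.44 TPM.

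Reported Elavl target mRNAs reached 1 TPM in both pups for 23 of 24 genes, with a median of 21.5 TPM and 0 past 2-fold, as against 5.45% of all genes tested. Actb led with 8804 TPM in pup 1 and 9181 TPM in pup 3. Gap43, a growth-cone gene and a known Elavl4 target, had 1694 TPM in pup 1 and 1337 TPM in pup 3, and Ptma had 1467 and 1563 TPM. Reported Celf target mRNAs reached 1 TPM for 16 of 18 genes, with a median of 28.0 TPM. Mapt, which encodes tau, led with 1189 TPM in pup 1 and 808 TPM in pup 3, followed by App with 377 and 239 TPM and Cdkn1a with 124 and 94.3 TPM. Clcn1, a muscle chloride channel gene, was the lowest at 0.64 and 0.46 TPM. Of the 16 Celf targets tested between the pups 1 passed 2-fold, as against 5.45% of all genes. It was Slc1a2, a glutamate transporter gene, at 15.3 TPM in pup 1 and 6.59 TPM in pup 3. Mapt and Cdkn1a belong to both target lists (8.33% of the Elavl list and 11.1% of the Celf list).

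Other splicing and RNA-binding regulators of neurons were present for 22 of 23 genes, with a median of 23.7 TPM. Rbfox1 led at 141 TPM in pup 1 and 131 TPM in pup 3, followed by Ptbp2, the neuronal polypyrimidine tract binding protein, at 114 and 101 TPM and Khdrbs1 at 91.5 and 75.2 TPM. Mbnl3 was the lowest at 0.45 and 0.52 TPM. Cpeb1 passed 2-fold with 4.42 TPM in pup 1 and 1.80 TPM in pup 3, and so did Cpeb3 with 6.77 and 3.19 TPM. These were 2 of the 22 listed genes tested, as against 5.45% of all genes.

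**Figure D5:**
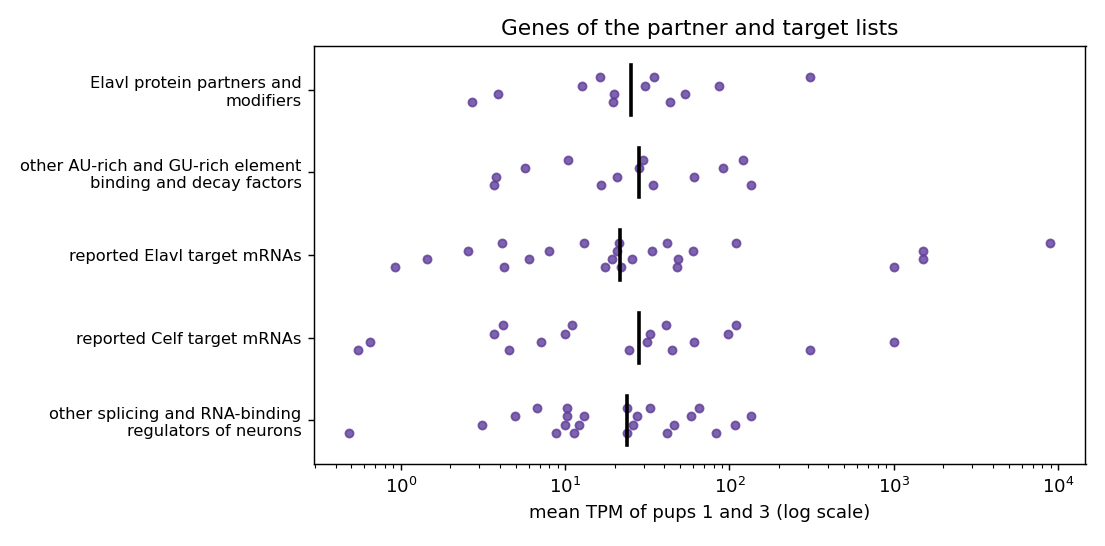
Mean TPM over pups 1 and 3 of each gene in the 5 partner and target lists (horizontal axis, log scale), with 1 point per gene and a black bar at the list's median. The medians lie between 21.5 and 28.2 TPM, while single genes run from below 1 TPM to 8992 TPM for Actb.

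The members' transcripts were compared with those of all other genes, since reads that fit both may be divided between them. Of all 100-nt windows in each member's transcripts, 0% were shared between members, and 6 of 10 members shared none with any other gene. With 50-nt windows 3 of 10 shared none, and the shared part was 7.63% in Celf5, 4.37% in Elavl3, 0.235% in Celf6 and 0.0803% in Celf1. Celf2 shared 6.61% of its 100-nt windows with Gm26565, an antisense gene with 29.3 expected counts in pup 1 and 7.55 in pup 3, and Celf5 shared 6.64% with Gm16105, an antisense gene with 8.77 and 0. Elavl1 shared 1.45% with Ccl25, on the opposite strand, which had 331 expected counts in pup 1 and 349 in pup 3. Elavl3 shared 3.19% with Gm49318, on the same strand, which has no entry among the deposited genes and so was assigned none of the counts. Riiad1, opposite Celf3 with 74 bases of exon overlap, had 283 and 336. No source used here gives the strand setting of the counting, so reads of the pairs on opposite strands cannot be told apart where they overlap.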

How the data were processed

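The 2 libraries of total RNA, from pups 1 and 3, formed 1 group. Expected counts, in which shared reads are divided so that values need not be whole, were deposited by the authors per gene and transcript, with TPM, posterior mean TPM and FPKM per the file headers. Per the file headers they also give the bounds of a credibility interval, read here as signal values, of a level that no source used here states, and each transcript's share of its gene in percent. The deposited notes name mm10 and GENCODE M4; the aligner and quantifier are not given in the sources used, nor is the strandedness. Symbols, positions, transcript classes and sequences came from GENCODE M21 on GRCm38, the build of mm10, matched by identifier without version, and 42462 of 43346 genes had a symbol.

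From the deposited TPM, mean and SD were taken over the 2 pups. Ratios used log2(TPM + 0.1), which understates changes of low genes. A ratio between genes was past the spread when both pups gave the same direction and the mean log2 ratio exceeded 3 SD. A ratio between the pups, pup 1 over pup 3, was called at 2-fold among genes averaging at least 1 TPM. Named in the text were all members, the 3 highest genes and the lowest of each partner and target list plus those past 2-fold, transcripts with 10% or more of a gene's TPM, and segments with 10% to 90% inclusion; the segments of Celf6 outside that range, the linker exon, the 3′ UTR stretches and the named markers were chosen after their values were seen. Segment inclusion is the share of complete coding TPM spanning the segment that contains it. Members and lists were chosen with earlier results of these data known. Intervals were used only to call genes under 1 alternative. Expected counts were rounded for TMM scaling (edgeR 4.0.16, R 4.3.3); other steps used Python 3.11.15, pandas 2.3.3 and numpy 2.4.6. The ratio step was tested on simulated data. Protein identity between members was planned and is not reported here, nor is the lowest gene of 1 list.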

Additional observations from a re-analysis of the deposited data

How the results depend on the processing

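No paired analysis was possible because the 2 pups form 1 group and no second group shares their numbers. With 2 pups an SD has 1 degree of freedom, and depth limited the members little, since each had 926 or more expected counts in each pup. The share of the neuronal members in the Elavl family, 89.0% of TPM, was 78.4% from expected counts, 83.9% from protein-coding transcripts and 82.1% from complete coding transcripts, and ran from 88.96% to 89.1% with either pup left out. Elavl2 over Elavl4, log2 -1.19 in TPM, was log2 0.051 ± 0.059 in expected counts scaled to the library total, within the spread, and reversed to 0.48 ± 0.10 in complete coding TPM, past it (SD, n = 2). All alternatives on complete coding transcripts were chosen after seeing the data. The count of members past 2-fold between the pups, 1, became 0 with TMM scaling, 0 with median-of-ratios size factors and 3 at 1.5-fold. Of all genes tested 5.45% passed 2-fold in TPM, 2.02% with TMM and 3.00% with median-of-ratios, and 21.5% passed 1.5-fold. The count over all genes, 817 of 14985, became 385 with a pseudocount of 1, 303 with TMM, 450 with median-of-ratios and 3216 at 1.5-fold. It was 3201 of 43346 genes without a filter and 456 of 12911 genes from complete coding transcripts. The number of members detected, 10, and of members with the same leading transcript, 10, were the same under every alternative run for them. The neighbours past the spread numbered 3 on each scale but were not the same pairs: they were Celf2 over Celf1, Celf1 over Elavl2 and Elavl1 over Celf3 in expected counts scaled to the library total, and Celf1 over Elavl4 took the place of Celf1 over Celf3 in complete coding TPM. For the ratios within families the pairs past the spread were 9 or 10.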
